A study of Mus musculus with 6 samples.

Results

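Immune checkpoint ligands and receptors were examined in lung tumors that grew with or without interstitial pneumonia (IP). The group was 10 of the 31130 genes in the deposited tables, found by gene symbol: Cd274, Pdcd1lg2, Pdcd1, Cd80, Cd86, Ctla4, Havcr2, Lgals9, Lag3 and Ido1. RNA was sequenced from 3 tumors of the LC model and 3 of the IP + LC model. The tumors of both groups arose from a transplanted mouse lung cancer line, Lewis lung carcinoma (LLC), injected into the left lung of female wild-type C57BL/6 mice aged 6 to 8 weeks on day 14, and were collected on day 21. IP + LC mice had received 2.0 mg/kg bleomycin, a drug that injures and scars the lung, by oropharyngeal aspiration beforehand, and LC mice had not. The labels number the tumors without naming animals, so the p-values measure the spread between these tumors. Those of a fit with no filter on low counts do so only weakly, as stated below. The LLC cells are 1 transplanted line in both groups, and the RNA was from whole tissue in which tumor, lung and immune cells were mixed.

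Checkpoint pathways restrain lymphocytes after they recognise antigen. PD-1 (Pdcd1) on activated T cells binds PD-L1 (Cd274) and PD-L2 (Pdcd1lg2) on tumor and myeloid cells. CTLA-4 (Ctla4) competes with the stimulatory receptor CD28 for CD80 and CD86 on antigen-presenting cells. TIM-3 (Havcr2) is carried by T cells and by many myeloid cells, and galectin-9 (Lgals9) is one of its proposed ligands. LAG-3 (Lag3) binds MHC class II, and IDO1 (Ido1) degrades tryptophan to kynurenines, which dampens T cells. In lung cancer the PD-1 axis is a target of therapy, and interferon gamma is a known inducer of both PD-L1 and IDO1.

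The PD-L1 transcript rose strongly in the IP + LC model, and IDO1, CD86 and TIM-3 transcripts rose with it, whereas galectin-9 did not pass the test. Counts were unique molecular identifiers (UMIs), that is, distinct molecules, and levels are given as CPM, UMIs scaled to library size and by TMM. Of the 10 genes, 5 had enough UMIs for edgeR's quasi-likelihood test across all genes, and 4 of these 5 rose significantly in IP + LC at an adjusted p below 0.1 (Benjamini-Hochberg). Among all 11240 tested genes, 36.4% passed in either direction and 16.8% passed as higher in IP + LC. Cd274, Havcr2, Cd86 and Ido1 reached the count filter in all 3 IP + LC libraries but in at most 2 LC libraries, so their passing the filter depended on the higher group. The other 5 genes, Pdcd1lg2, Pdcd1, Ctla4, Lag3 and Cd80, had between 7 and 41 UMIs over all 6 tumors and were left out of the test.

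**Figure D1:**
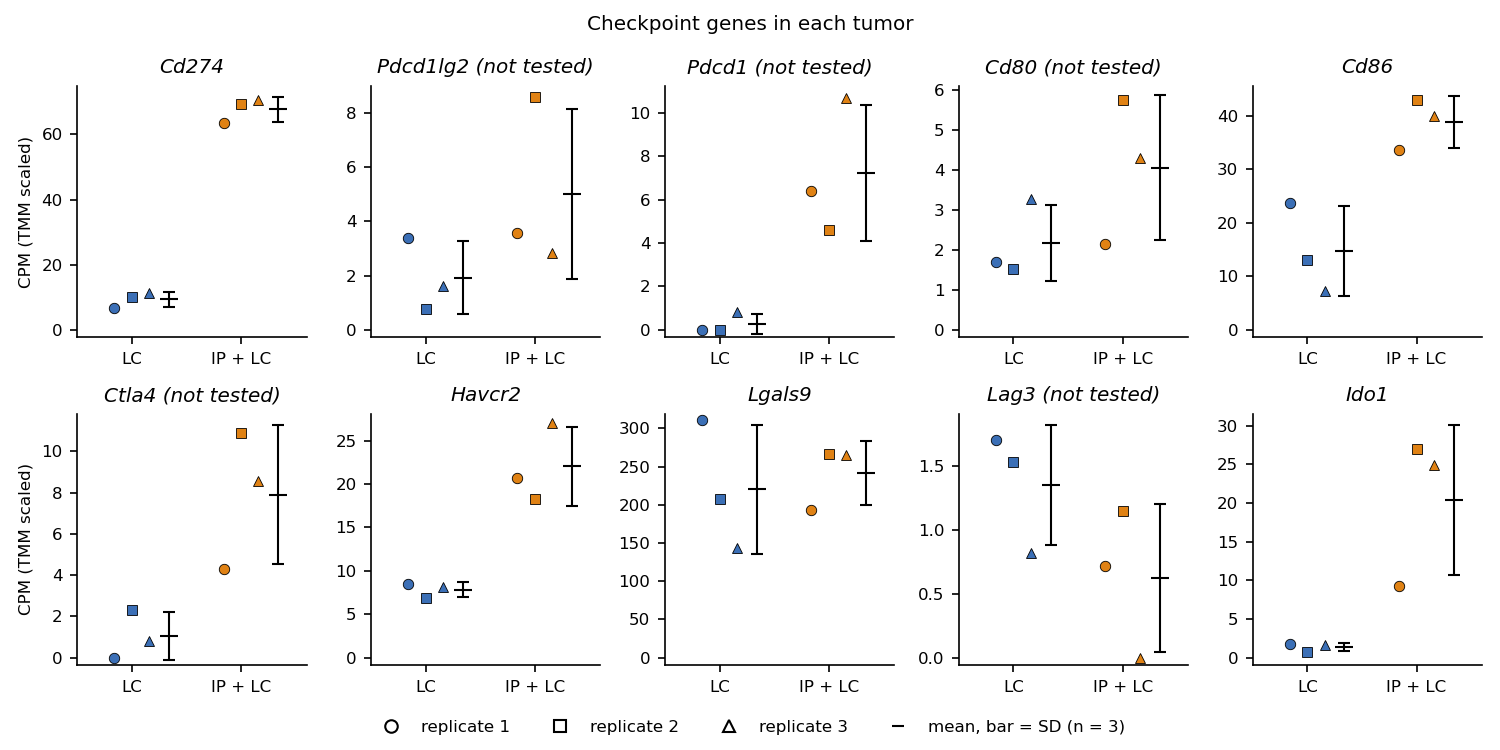
CPM after TMM scaling (y axis, linear, from 0) of each checkpoint gene in each of the 3 LC (blue) and 3 IP + LC (orange) tumors, with symbols for the replicate number and a bar for the mean and SD. Cd274 lay between 6.79 and 11.4 CPM in LC and between 63.4 and 70.6 CPM in IP + LC, and the Lgals9 groups overlapped.

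The 250 bases before the RefSeq start sites of 3 of these genes are shown because Cd274 and Havcr2 rose while Lgals9 did not, and because the study addressed hypoxia-inducible factor 1 signaling. Each is printed 5′ to 3′ on the gene's own strand, and capitals mark matches, on either strand, to ACGTG (the core of a hypoxia response element, HRE), to a pair of GAAA parted by any 2 bases (an interferon-stimulated response element, ISRE) or to GGG and CC parted by any 5 bases (NF-kB). The assembly is GRCm38.p6. The positions are chr19:29367188-29367437 on the plus strand for Cd274, chr11:46454681-46454930 on the plus strand for Havcr2 and chr11:78984925-78985174 on the minus strand for Lgals9.
Cd274: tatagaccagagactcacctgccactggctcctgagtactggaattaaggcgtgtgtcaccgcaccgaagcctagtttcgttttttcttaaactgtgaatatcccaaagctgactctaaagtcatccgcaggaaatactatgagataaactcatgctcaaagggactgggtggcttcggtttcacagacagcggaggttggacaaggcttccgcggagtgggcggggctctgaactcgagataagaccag
Havcr2: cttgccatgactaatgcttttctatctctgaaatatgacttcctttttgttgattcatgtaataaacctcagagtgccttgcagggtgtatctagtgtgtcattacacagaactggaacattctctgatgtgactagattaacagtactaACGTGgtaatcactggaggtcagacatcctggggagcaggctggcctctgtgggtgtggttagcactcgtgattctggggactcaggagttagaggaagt
Lgals9: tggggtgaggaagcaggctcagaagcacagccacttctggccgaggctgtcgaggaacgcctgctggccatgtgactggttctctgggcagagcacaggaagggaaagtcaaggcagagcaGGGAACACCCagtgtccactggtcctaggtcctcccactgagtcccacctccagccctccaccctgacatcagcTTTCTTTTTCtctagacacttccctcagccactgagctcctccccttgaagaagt

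RefSeq windows running from 250 bases before to 50 bases after the start were given for 7 of the 10 genes, and Lag3, Ido1 and Cd86 had no entry. The Cd274 stretch printed above held none of the motifs searched, and its window had 1 HRE core after the start, at bases 39 to 43. Havcr2 had 1 HRE core between bases -100 and -96. Lgals9, which did not pass the test, was the gene with ISRE matches, between bases -55 and -46 and between bases 15 and 24, and it had 1 NF-kB match. Ctla4 had 2 HRE cores, Pdcd1lg2 had 1 NF-kB match, Cd80 had 2 NF-kB matches and Pdcd1 had none of the motifs. None of the 7 windows held TTCNNNGAA, the interferon gamma-activated sequence (GAS). Of all 32851 windows of this length, 19.6% held the HRE core, 3.44% the ISRE, 50.8% the NF-kB letters and 8.30% the GAS element, so a match to the HRE or NF-kB letters is common. These are matches of letters within a short window and say nothing about binding.

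The PD-1 ligands lie side by side on chromosome 19. In GRCm38 with GENCODE M21, Cd274 (ENSMUSG00000016496) spans chr19:29367455-29388095 and Pdcd1lg2 (ENSMUSG00000016498) spans chr19:29410919-29471161, both on the plus strand. They are 22.8 kb apart with no protein-coding gene between them, and Jak2, a kinase of interferon signaling, ends 54.4 kb before Cd274.

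Cd274 had 4, 13 and 14 UMIs in LC replicates 1, 2 and 3, and 89, 121 and 99 UMIs in IP + LC replicates 1, 2 and 3. In CPM these were 6.79, 9.94 and 11.4 in LC, and 63.4, 69.3 and 70.6 in IP + LC. Every IP + LC tumor was above every LC tumor, as for 21.9% of the tested genes, and the spread within each group was small beside the gap. The mean was 9.38 ± 2.36 CPM in LC (SD, n = 3) and 67.8 ± 3.83 CPM in IP + LC (SD, n = 3). The log2 fold change was 2.76 with an SE of 0.24, that is, 6.79-fold, with a 95% confidence interval of 2.21 to 3.31 on the log2 scale and an adjusted p of 0.000716 in edgeR's quasi-likelihood test. Only 55 of the 11240 tested genes, or 0.489%, rose by at least as much. Of the exonic bases of Cd274, 14.1% were overlapped by another annotated gene, AC119228.1, and stretches of at most 136 bases matched 12 other genes, so reads there may have been assigned differently.

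Pdcd1lg2, the neighbouring ligand, had 2, 1 and 2 UMIs in LC and 5, 15 and 4 UMIs in IP + LC. The groups did not overlap in UMIs but overlapped in CPM, where LC replicate 1, the shallowest library, stood at 3.39 and IP + LC replicate 3 at 2.85. The group sums were 5 and 24 UMIs, and their ratio, scaled to library size, was 3.30 with a 95% interval of 1.23 to 11.1 that covers counting error only. In a fit of all genes with no filter on low counts, the log2 fold change was 1.66 (SE 0.88) and the adjusted p in edgeR's quasi-likelihood test was 0.251. Without LC replicate 1 this value was 2.204 and the adjusted p was 0.0377, and without IP + LC replicate 2 they were 0.97 and 0.629. In the unfiltered fit of all 6 tumors, the SEs of Hmgb1 and Ptpn6 were 0.27 and 0.28, against 0.39 and 0.25 in the filtered fit. Cd274 had a larger SE there (0.33 against 0.24) but an adjusted p of 5.82e-16 in the same test. The p-values of the unfiltered fit therefore carry little of a gene's own spread between tumors. Within each tumor, the log2 ratio of Cd274 to Pdcd1lg2 UMIs, with 0.5 added to each, was 0.85, 3.17 and 2.54 in LC and 4.02, 2.97 and 4.47 in IP + LC. The mean ratio was 1.64 higher in IP + LC, but the groups overlapped, and the exact permutation test (two-sided, n = 3 per group, smallest possible p 0.1) gave p = 0.2.

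Pdcd1, the receptor of both ligands (ENSMUSG00000026285, chr1:94038305-94052553, minus strand), had 0, 0 and 1 UMI in LC and 9, 8 and 15 UMIs in IP + LC. All IP + LC tumors exceeded the LC tumors, in which no library had more than 3 UMIs, so the gene was close to undetected in LC at this depth. The group sums were 1 and 32 UMIs, a ratio scaled to library size of 21.98 with a 95% counting interval of 3.67 to 895. Without the count filter, Pdcd1 passed edgeR's quasi-likelihood test with an adjusted p of 0.00123, in a fit where 7.87% of 29423 genes passed as higher in IP + LC and 8.51% as lower. It still passed after any 1 of the 6 tumors was left out of that fit, with adjusted p between 0.000134 and 0.0471. As above, the p-values of the unfiltered fit carry little of the gene's own spread between tumors. The fitted log2 value of 4.21 (SE 1.06), which was 6.25 without LC replicate 3, depends on the prior count that the fit adds and is no bound.

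Cd86, a ligand of CD28 and CTLA-4 (ENSMUSG00000022901, chr16:36603869-36666081, minus strand), had 14, 17 and 9 UMIs in LC and 47, 75 and 56 UMIs in IP + LC. In CPM these were 23.8, 13.0 and 7.33 in LC, and 33.5, 43.0 and 39.9 in IP + LC. The groups did not overlap, although LC replicate 1 reached more than 3 times the CPM of LC replicate 3. Cd86 rose from 14.7 ± 8.34 to 38.8 ± 4.84 CPM (SD, n = 3 per group), a log2 fold change of 1.53 (SE 0.35) with an adjusted p of 0.0126 in edgeR's quasi-likelihood test. With every library thinned to 592733 UMIs, the size of the smallest, the value was 0.92 and the adjusted p was 0.217.

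Cd80, the related ligand (ENSMUSG00000075122, chr16:38455561-38496335, plus strand), had 1, 2 and 4 UMIs in LC and 3, 10 and 6 UMIs in IP + LC. The groups overlapped. The sums of 7 and 19 UMIs gave a scaled ratio of 1.86 with a 95% counting interval of 0.750 to 5.25, and the fit with no filter gave an adjusted p of 0.542 in edgeR's quasi-likelihood test, so a difference was not detectable at this depth. The log2 ratio of Cd80 to Cd86 within tumors was -3.27, -2.81 and -1.08 in LC and -3.76, -2.85 and -3.12 in IP + LC. The groups overlapped, with a mean difference of -0.86 and p = 0.4 in the exact permutation test (two-sided, n = 3 per group).

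Ctla4, which encodes the inhibitory receptor for both (ENSMUSG00000026011, chr1:60887000-60915832, plus strand), had 0, 3 and 1 UMIs in LC and 6, 19 and 12 UMIs in IP + LC. Every IP + LC tumor was above every LC tumor. The sums were 4 and 37 UMIs, a scaled ratio of 6.35 with a 95% counting interval of 2.28 to 24.5. With no count filter, Ctla4 passed edgeR's quasi-likelihood test (log2 fold change 2.68, SE 0.80, adjusted p of 0.00902). However, without IP + LC replicate 2 the value was 2.38 and the adjusted p was 0.180, and without LC replicate 2 the value was 3.84. No LC library had more than 3 UMIs, so the fitted value depends on the prior count that the fit adds. As above, the p-values of the unfiltered fit carry little of the gene's own spread between tumors. Among the 29423 genes with a UMI, 9.74% had all IP + LC tumors above all LC tumors.

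Havcr2, encoding TIM-3 (ENSMUSG00000020399, chr11:46454935-46481255, plus strand), had 5, 9 and 10 UMIs in LC and 29, 32 and 38 UMIs in IP + LC. In CPM these were 8.48, 6.88 and 8.15 in LC, and 20.7, 18.3 and 27.1 in IP + LC. The LC tumors were close together and every IP + LC tumor was above them. Havcr2 rose from 7.84 ± 0.846 to 22.03 ± 4.54 CPM (SD, n = 3 per group), a log2 fold change of 1.48 (SE 0.31) with an adjusted p of 0.00949 in edgeR's quasi-likelihood test.

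Lgals9, its proposed ligand (ENSMUSG00000001123, chr11:78962974-78984946, minus strand), had 183, 271 and 176 UMIs in LC and 271, 465 and 372 UMIs in IP + LC. In CPM these were 311, 207 and 143 in LC, and 193, 266 and 265 in IP + LC. LC replicate 1 was the highest and LC replicate 3 the lowest of all 6 tumors, so the groups overlapped. The log2 fold change was 0.14 (SE 0.29) with a 95% confidence interval of -0.52 to 0.79 and an adjusted p of 0.760 in edgeR's quasi-likelihood test. When LC replicate 1 was left out, Lgals9 passed with a log2 value of 0.45 and an adjusted p of 0.0515, in a fit in which 57.0% of the tested genes passed in either direction and 28.3% as higher. Without LC replicate 3 it was -0.10 (adjusted p of 0.820).

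Lag3 (ENSMUSG00000030124, chr6:124904361-124911705, minus strand), encoded 16.1 kb from Cd4, had too few UMIs for any comparison, with 1, 2 and 1 UMIs in LC and 1, 2 and 0 UMIs in IP + LC. The scaled ratio of the sums was 0.515 with a 95% counting interval of 0.0755 to 3.04. No library had more than 3 UMIs.

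Ido1 (ENSMUSG00000031551, chr8:24584136-24597009, minus strand) had 1, 1 and 2 UMIs in LC and 13, 47 and 35 UMIs in IP + LC. In CPM the IP + LC tumors stood at 9.26, 26.9 and 24.96, all above the LC tumors, which reached at most 1.70. The mean was 1.36 ± 0.520 CPM in LC and 20.4 ± 9.68 CPM in IP + LC (SD, n = 3 per group), and the adjusted p was 0.00368 in edgeR's quasi-likelihood test. No LC library had more than 3 UMIs. The fitted log2 fold change of 3.89 (SE 0.65) therefore depends on the prior count, and the scaled ratio of the sums of 4 and 95 UMIs was 16.3 with a 95% counting interval of 6.17 to 61.1. Ido2, the neighbouring paralog 7.80 kb away, had at most 2 UMIs in any tumor.

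**Figure D2:**
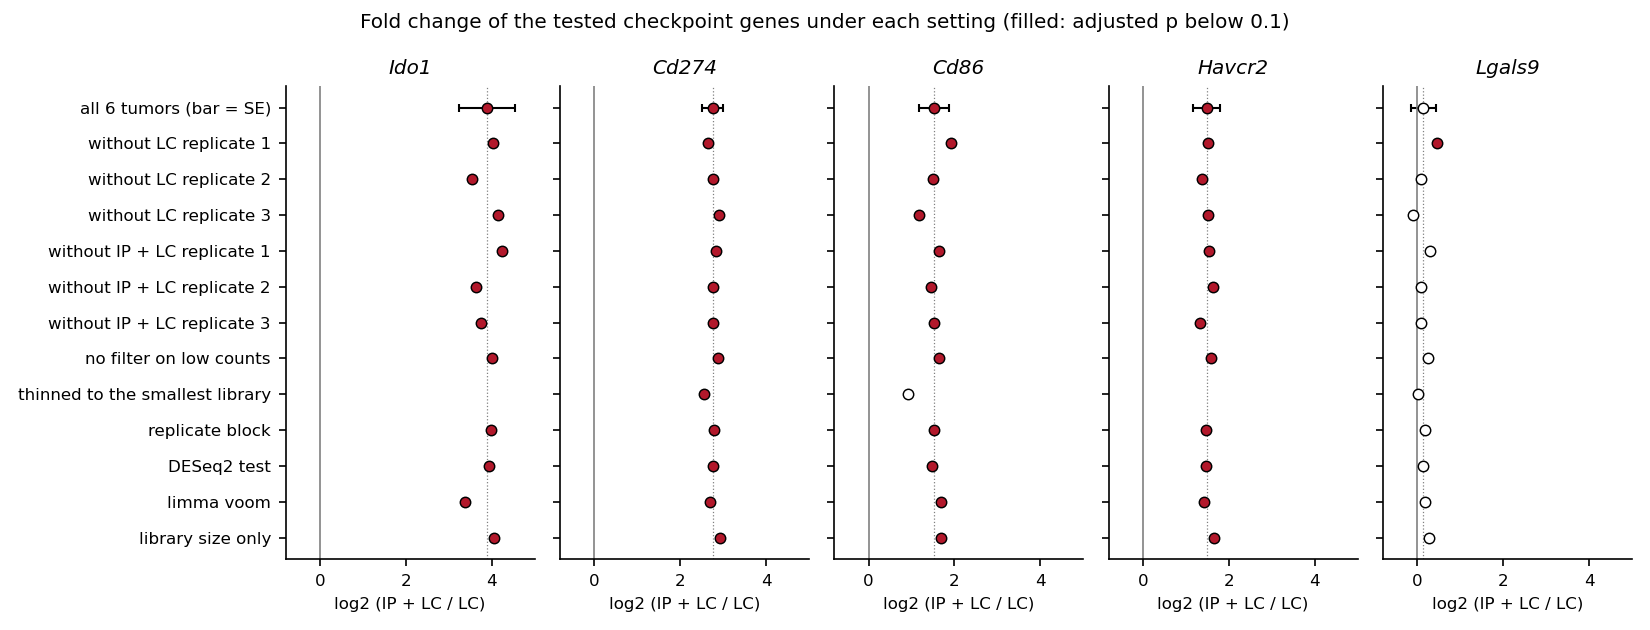
Log2 fold change (x axis, IP + LC over LC) of the 5 tested genes in all 6 tumors, with each tumor left out and under other settings (rows), filled where the adjusted p was below 0.1. The bar on the top row is the SE, the dotted line marks its value, and no point is drawn where a gene fell under the count filter, as Ido1 and Havcr2 did after thinning. Cd274 stayed between 2.56 and 2.93 over the settings, and Lgals9 lay on both sides of 0.

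The 4 increases had the same direction and passed the test when any 1 tumor was left out. With LC replicate 1, which had 592733 UMIs against 1336919 to 1631066 in the others, left out, Cd274 had a log2 fold change of 2.65, Ido1 of 4.02, Cd86 of 1.91 and Havcr2 of 1.52, in edgeR fits in which 28.3% of the tested genes passed as higher. With the libraries thinned to equal depth, Cd274 was the only checkpoint gene that passed, at an adjusted p of 0.00319 in edgeR's quasi-likelihood test, Ido1 and Havcr2 fell under the count filter, and 7.98% of tested genes passed as higher.

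The levels of several cell type markers also differed between the models. In bulk tissue, fewer cells of a type and less RNA per cell cannot be told apart. Marker lists were summed in each tumor. The 5 pan-leukocyte markers summed to 1007 to 1286 CPM in LC and 1204 to 1657 CPM in IP + LC, with 1 of 5 passing as higher. Of 10 macrophage markers, 5 rose and 1, Lyz2, fell. Among all tested genes 16.8% rose and 19.6% fell. Without LC replicate 1, 3 of 5 pan-leukocyte markers rose, and of 10 macrophage markers 8 rose and 1 fell. In that fit 28.3% of all tested genes rose and 28.7% fell. Lyz2 made up 64.2% to 95.6% of the macrophage UMIs, so the list's sum was lower in IP + LC (7968 to 9614 CPM) than in LC (12924 to 15542 CPM) although its median log2 fold change was 0.93. All 8 alveolar macrophage markers fell, from 1712 to 2097 CPM in LC to 231 to 468 CPM in IP + LC, and so did 6 of 7 lung epithelial markers (69240 to 74738 CPM in LC and 8069 to 14104 CPM in IP + LC), 6 of 6 endothelial, 4 of 5 B cell and 3 of 6 neutrophil markers. Of 8 T cell markers, 7 were tested and 1 fell, and their sums overlapped (148 to 181 CPM in LC and 118 to 215 CPM in IP + LC). Among the 10 dendritic cell markers 1 rose and 2 fell, among 7 CD8 and cytotoxic markers 1 rose and 1 fell, among 5 NK cell markers 1 rose and 1 fell, none of the 5 CD4 and regulatory T cell markers passed with 1 tested, and among 5 fibroblast markers 2 rose and 2 fell. Without LC replicate 1, 2 dendritic cell markers rose and 4 fell, 1 NK cell marker rose and 2 fell, and 3 fibroblast markers rose and 2 fell. In that fit 1 of 2 tested CD4 and regulatory T cell markers rose, as did 1 neutrophil and 1 lung epithelial marker. Marker genes of every one of these types had UMIs in both groups. The part of these shifts in the checkpoint changes was not tested.

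Cd274, Pdcd1lg2, Cd80, Cd86, Lgals9, Ido1 and Havcr2 were therefore also counted relative to marker UMIs of the same library. Library scaling does not touch this measure. The cells that made these transcripts were not identified in the bulk tissue, so the values are not levels per leukocyte. Per 1000 UMIs of the pan-leukocyte markers, Cd274 had 5.28, 9.87 and 9.89 UMIs in LC and 52.7, 42.6 and 42.6 in IP + LC. The means were 8.34 ± 2.66 and 46.0 ± 5.81 (SD, n = 3 per group), a ratio of 5.51, against 6.79-fold in the fit. Ido1 went from 1.16 ± 0.353 to 13.1 ± 4.74, Havcr2 from 6.83 ± 0.233 to 14.9 ± 3.20 and Cd86 from 12.6 ± 6.06 to 26.1 ± 1.87, all with no overlap between the groups, as for 8.25% of the tested genes. With the libraries thinned to equal depth, the difference between the means fell from 13.5 to 7.50 for Cd86 and from 8.10 to 4.75 for Havcr2, and was 38.5 against 37.6 for Cd274; after thinning 3 genes had no overlap, and the Havcr2 groups overlapped. Before thinning, Cd274, Ido1, Havcr2 and Cd86 each gave p = 0.1 in the exact permutation test (two-sided, n = 3 per group), the smallest it can give. The adjusted p in this test was 0.127 over 14 such tests, so none could pass the limit. Lgals9 was 190 ± 60.0 in LC and 161 ± 1.95 in IP + LC, and Lgals9, Pdcd1lg2 and Cd80 overlapped between the groups. The Lgals9 difference of -29.1 was -3.66 without LC replicate 1 and -62.2 without LC replicate 3.

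Relative to macrophage markers, the result depended on Lyz2. With Lyz2 included, all 7 of these genes were higher in every IP + LC tumor than in any LC tumor per 1000 macrophage UMIs, but so were 56.4% of all tested genes, and the sum in the denominator was lower in IP + LC. Cd274 was 0.437 to 0.834 in LC and 7.34 to 8.28 in IP + LC. After Lyz2 was left out of the denominator, a choice made after seeing its share, Cd274 had 2.93, 11.6 and 18.8 UMIs per 1000 in LC and 26.7, 23.1 and 26.2 in IP + LC, and Ido1 had 0.732 to 2.69 in LC and 3.89 to 9.26 in IP + LC. For these 2 genes every IP + LC tumor stayed above every LC tumor, which held for 1.46% of the tested genes. Cd86 was 10.2 to 15.2 in LC and 14.1 to 14.8 in IP + LC, and Havcr2 was 3.66 to 13.4 in LC and 6.11 to 10.1 in IP + LC, so their groups overlapped. Lgals9 was lower in every IP + LC tumor (81.2 to 98.4) than in any LC tumor (134 to 243), as were 45.7% of the tested genes. The markers other than Lyz2 summed to 1367, 1117 and 744 UMIs in LC replicates 1, 2 and 3, and to 3339, 5240 and 3780 UMIs in IP + LC replicates 1, 2 and 3. These sums are not scaled to library size. LC replicate 1 had the highest sum in LC although it was the smallest library, with 592733 UMIs.

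**Figure D3:**
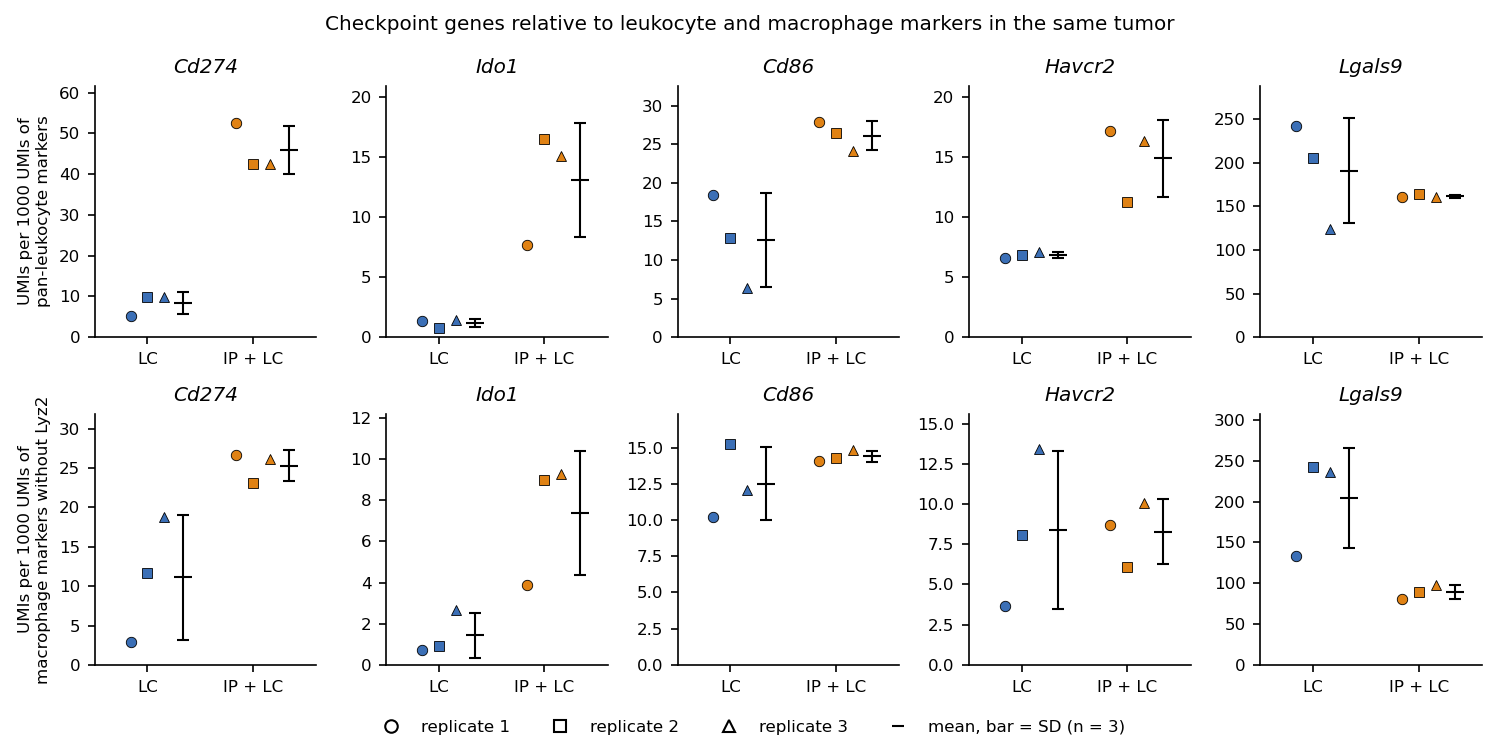
UMIs of 5 checkpoint genes per 1000 UMIs of pan-leukocyte markers (top row) or of macrophage markers without Lyz2 (bottom row) in each LC (blue) and IP + LC (orange) tumor, with mean and SD; y axes are linear and start at 0. Cd274 and Ido1 were apart in both rows, Cd86 and Havcr2 in the top row, and Lgals9 was lower in IP + LC in the bottom row.

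The T cell receptors were counted against T cell marker UMIs. Pdcd1 had 0, 0 and 0.498 UMIs per 100 T cell marker UMIs in LC and 5.42, 2.38 and 4.98 in IP + LC. Ctla4 had 0, 1.27 and 0.498 in LC and 3.61, 5.65 and 3.99 in IP + LC. With the libraries thinned, the difference between the means fell from 4.10 to 2.61 for Pdcd1 and was 4.12 against 3.83 for Ctla4. In both cases the IP + LC tumors were the higher ones, whereas Lag3, with 7 UMIs in all, overlapped (0.498 to 1.15 in LC and 0 to 0.602 in IP + LC). The share of all tested genes that were apart on this scale was not computed, so how unusual this is cannot be judged. Pdcd1, Ctla4 and Lag3 together went from 1.58 ± 0.487 to 9.08 ± 0.513 per 100 T cell marker UMIs (SD, n = 3 per group), on sums of 1 to 5 UMIs in each LC library and 16 to 29 in each IP + LC library. No test was run on this sum, and for Pdcd1 and Ctla4 alone the exact permutation test (two-sided, n = 3 per group) gave its smallest possible p of 0.1.

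**Figure D4:**
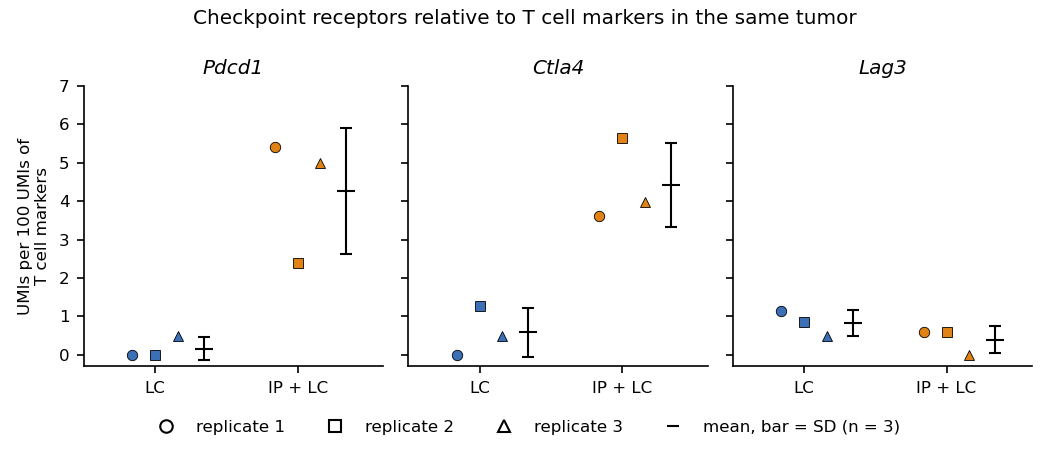
UMIs of Pdcd1, Ctla4 and Lag3 per 100 UMIs of the 8 T cell markers (y axis, linear) in each tumor, with mean and SD. Pdcd1 and Ctla4 were higher in the 3 IP + LC tumors than in the 3 LC tumors, and Lag3 overlapped.

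Binding partners and related genes were read from the same fit. Of 77 genes in 9 lists, 51 were tested, of which 10 rose and 3 fell, while 16.8% of all tested genes rose and 19.6% fell. The median log2 fold change of all tested genes was 0.02. Without LC replicate 1, 31 of these genes passed, in a fit where 57.0% of all tested genes did, and without IP + LC replicate 2, 5 passed, in a fit where 19.2% did, 7.61% as higher and 11.6% as lower.

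Among 5 partners of the PD-1 axis, Ptpn6, which encodes the phosphatase SHP-1, rose by a log2 fold change of 0.76 (SE 0.25, adjusted p of 0.0521 by edgeR's quasi-likelihood test), and the list's median was 0.15. Of 6 LAG-3 ligand genes, which include MHC class II chains, H2-Ab1 rose from 516 ± 31.5 to 948 ± 332 CPM (SD, n = 3 per group; log2 fold change 0.87), and the median was 0.54. None of 3 CD28 and ICOS genes passed. Icos, the member with the most UMIs, stood at 6.06 ± 5.29 CPM in LC and 12.04 ± 2.02 CPM in IP + LC. None of 3 TIM-3 partners passed with all tumors. Hmgb1 stood at 54.3, 184 and 189 CPM in LC and 242, 252 and 228 CPM in IP + LC, with LC replicate 1 far below the other tumors. Without LC replicate 1, where 57.0% of all genes passed, all 3 passed edgeR's quasi-likelihood test, Hmgb1 at a log2 fold change of 0.36 (adjusted p of 0.0382), Bag6 at 0.45 and Ceacam1 at -1.02. In that fit all 5 tested LAG-3 ligand genes rose, 1 of 5 PD-1 partners rose and 1 fell, and none of the 3 CD28 and ICOS genes passed. Of 7 other genes of the kynurenine pathway, which IDO1 opens, 1 was tested, namely Kmo, with 9.84 ± 6.62 CPM in LC and 6.56 ± 2.63 CPM in IP + LC (adjusted p of 0.481 by edgeR's quasi-likelihood test).

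Among 19 other inhibitory receptors and ligands, 11 were tested, with a median log2 fold change of 0.20. Tnfrsf14, encoding HVEM, rose from 7.95 ± 5.53 to 23.8 ± 7.42 CPM (log2 fold change 1.39), while its receptor gene Btla fell from 23.4 ± 9.13 to 10.1 ± 2.52 CPM (log2 fold change -1.13). Sirpa, the receptor for CD47, rose by 0.69 on the log2 scale, and Cd200, the ligand of an inhibitory myeloid receptor, fell by 1.01. Of 10 TNF family costimulators, 3 were tested and Tnfrsf9, encoding 4-1BB, rose from 0, 7 and 6 UMIs in LC to 25, 51 and 31 UMIs in IP + LC (log2 fold change 2.47, adjusted p of 0.0075 by edgeR's quasi-likelihood test). Tnfrsf4, encoding OX40, was under the filter with 3, 2 and 1 UMIs in LC and 8, 23 and 17 UMIs in IP + LC, and was named after its values were seen. Without LC replicate 1, 3 of the 11 other inhibitory genes rose and 3 fell, and 3 of 5 TNF family costimulators rose. In that fit 28.3% of all tested genes rose and 28.7% fell.

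Genes of pathways known to induce PD-L1, such as interferon and hypoxia signaling, were taken as a list, feedback inhibitors included. Of 12 such genes 11 were tested, 5 rose and none fell, with a median log2 fold change of 0.69. Among all tested genes 16.8% rose and 19.6% fell. Without LC replicate 1, 12 were tested and 9 rose, in a fit where 28.3% of all tested genes rose and 28.7% fell. In that fit 1 gene of the list, Ifngr1, which encodes an interferon gamma receptor chain, fell (log2 fold change -0.71). Socs1, an interferon-induced brake on cytokine signaling, had 9, 7 and 8 UMIs in LC and 160, 232 and 197 UMIs in IP + LC (log2 fold change 3.98, SE 0.33, adjusted p of 0.000565 by edgeR's quasi-likelihood test). Irf1, a transcription factor for Cd274, rose from 107 ± 51.8 to 380 ± 40.8 CPM (SD, n = 3 per group; log2 fold change 1.84). Stat3, Hif1a and Nfkb1 rose by 0.86, 0.79 and 0.69 on the log2 scale. Ifng, encoding interferon gamma and named after its values were seen, had 0 UMIs in all LC libraries and 8, 14 and 11 UMIs in IP + LC, and the lower 95% counting limit of the scaled ratio was 5.81. Jak2, named for its position before Cd274, stood at 47.8 ± 4.37 CPM in LC and 64.9 ± 9.30 CPM in IP + LC and did not pass (adjusted p of 0.149 by edgeR's quasi-likelihood test; 0.042 without LC replicate 1). Of 12 genes linked to T cell exhaustion, 9 were tested, none rose and Nr4a1 fell from 84.5 ± 28.5 to 31.7 ± 4.09 CPM (log2 fold change -1.46), with a median of 0.15; without LC replicate 1, 10 were tested, 1 rose and 1 fell.

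**Figure D5:**
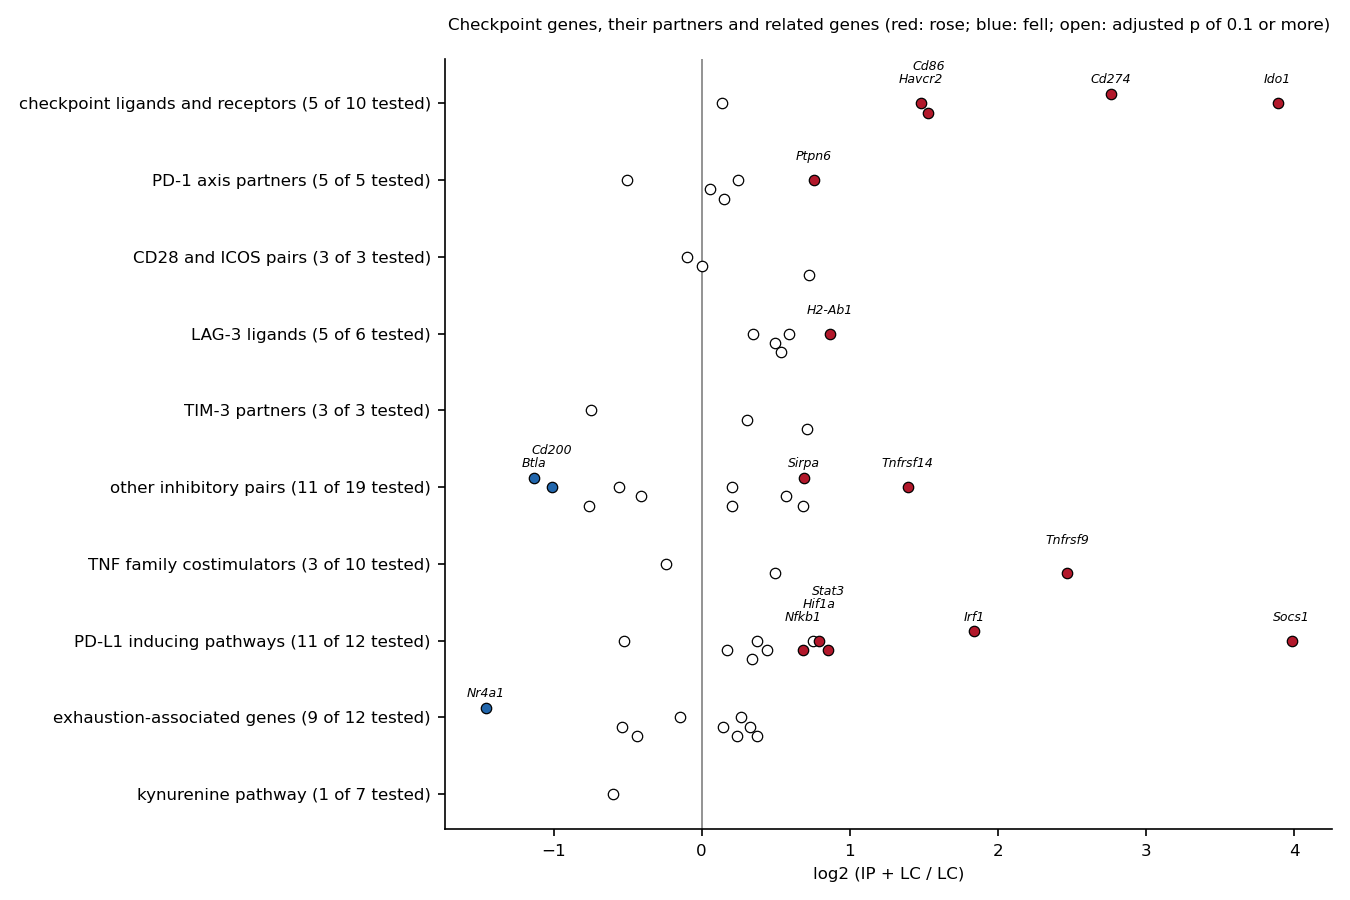
Log2 fold change (x axis, IP + LC over LC) of each tested gene in the checkpoint group and in 9 related lists (rows), coloured where the adjusted p was below 0.1; points are set apart vertically only for legibility. Of the 12 genes of PD-L1 inducing pathways, 11 were tested and 5 rose, where 16.8% of all tested genes rose. Lgals9 is the open point of the top row.

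The 3 tested genes whose pattern over the 6 tumors was nearest to Cd274, by the root mean square difference of log2(CPM + 4) centred per gene, were Kif20b (0.0840), Irgm1 (0.145) and Gbp8 (0.149). Kif20b, a mitotic kinesin, lay between 6.79 and 12.2 CPM in LC and between 58.4 and 75.1 CPM in IP + LC. Irgm1 and Gbp8, which encode interferon-inducible GTPases, had log2 fold changes of 2.50 and 2.89, against 2.76 for Cd274.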

How the data were processed

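RNA-seq was performed on tumor tissue of 3 LC and 3 IP + LC tumors. Per the labels, the authors made oligo-dT libraries with a 10-base UMI and used UMI-tools 1.1.1, Trim Galore 0.6.7, HISAT2 2.2.1 (GRCm38) and featureCounts 2.0.1; the annotation release and strand setting were not given in the sources used here. The deposited values are raw UMI counts, with totals of 592733 to 1631066 per library. A count of 3 UMIs, taken as the floor, equalled 5.06 CPM in LC replicate 1 and 1.84 to 2.24 CPM in the others. Intervals of counts cover counting error only. Counts were tested in R 4.3.3 with edgeR 4.0.16 (filterByExpr with a minimum count of 10 and a total of 15, TMM, quasi-likelihood test, Benjamini-Hochberg over 11240 genes, limit 0.1). DESeq2 1.42.0 and limma 3.58.1 (voom) were alternatives. The test was checked on simulated data. Ratios within tumors used exact permutation tests in SciPy 1.17.1. Copies were searched with blastn 2.17.0 (at least 81 bases, 95% identity). The members and lists were chosen with earlier results of these data known. Named were all 10 members, up to 4 passing genes with the largest change per list, or else the gene with the most UMIs, and the 3 genes nearest to Cd274; Nfkb1, Ifng, Tnfrsf4, Bag6, Ceacam1, Ifngr1, Jak2 and Ido2 were named outside this rule. Cd244 of the other inhibitory genes was not found under that symbol, and 1 gene of the lists is not reported here.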

Additional observations from a re-analysis of the deposited data

How the results depend on the processing

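Over the alternatives, Cd274 kept an adjusted p between 5.82e-16 and 0.0109, Ido1 between 5.45e-10 and 0.0297, Havcr2 between 0.000918 and 0.0552, Cd86 between 1.2e-05 and 0.217 and Lgals9 between 0.0515 and 0.972, where each could be tested. The lowest values of Cd274, Ido1, Havcr2 and Cd86 came from the fit with no filter. The p-values of that fit carry little of a gene's own spread between tumors. The 4 checkpoint genes became 0 when at least 10 UMIs were asked of every library, since none of the 4 met that, 1 (Cd274) with the libraries thinned, and 6 with no filter, which called 20 of the related genes against 13. Over all genes, 3056 of 7558 tested passed with at least 10 UMIs in every library. The share passing was 18.8% with the libraries thinned and 16.4% of 29423 genes with no filter, against 36.4% in the main fit. Leaving out 1 tumor gave 4 to 6 checkpoint genes, 5 to 31 of the related genes and 2265 to 6691 of all genes, against 4088; thinning gave 1661 of all genes. Among the fits with 1 tumor left out, calls over all genes were most frequent without LC replicate 1 and least frequent without IP + LC replicate 2. With scaling by library size only, 58.3% of the calls were increases, against 46.1%, and the median of all genes moved by 0.158 on the log2 scale. The tumor numbers did not pair the samples (correlations of same-numbered deviations of 0.0261, -0.12 and 0.112, and not every tumor correlated best with its own number), and with a replicate block 3410 genes passed, among them the same 4 checkpoint genes. Signs reversed for Lgals9 without LC replicate 3 (-0.10; range with 1 tumor left out up to 0.45), for Lag3 per 100 T cell marker UMIs (0.271) and Cd80 per 1000 pan-leukocyte UMIs (-0.837) after thinning, and, per 1000 macrophage UMIs without Lyz2, for Pdcd1lg2 (-0.270 without LC replicate 2 and -0.404 without IP + LC replicate 2, up to 0.627 with other tumors left out), Cd80 (0.204 without LC replicate 3, down to -2.12 with other tumors left out) and Havcr2 (2.42 without LC replicate 3 and 0.984 without IP + LC replicate 2, down to -2.47 with other tumors left out) and Cd86 (-2.78 after thinning). The cause was not tested. The Cd274 to Pdcd1lg2 difference ranged from 0.97 to 2.13, the Cd80 to Cd86 difference from -1.34 to -0.20 and the receptors per 100 T cell marker UMIs from 6.998 to 7.76. Depth limited Pdcd1, Ctla4, Pdcd1lg2, Cd80 and Lag3, each with at most 41 UMIs in all.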
